A study of Mus musculus with 6 samples.

Results

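The nuclear genes of respiratory complexes II to V were followed in mouse acute myeloid leukaemia cells after FLT3-ITD was switched off in the animal. The set held 35 genes, namely 4 of complex II, 7 of complex III, 10 of complex IV, 13 of complex V and the carrier cytochrome c. They were taken by symbol from a table of 53733 named gene rows, and all 35 had a single row and passed the filter on low counts that left 13652 rows for testing. The cells were a line made from murine foetal liver cells by retroviral transfer of MLL-AF9, expressed constantly with a luciferase, and of FLT3-ITD, expressed with DsRED from a doxycycline-responsive promoter. The labels name no sorting markers and do not say whether the line is 1 clone. All mice were NSG animals, an immunodeficient strain, that received these cells by tail vein and doxycycline for 96 h. In the OFF group, 3 mice then received food and water without doxycycline for 48 h, and in the ON group 3 mice stayed on doxycycline. MLL-AF9 was thus present in both groups. Doxycycline itself also differed between the groups, so an effect of the drug and one of FLT3-ITD cannot be told apart in these data. Viable leukaemic cells were sorted from the marrow, and each library was made from 1 mouse with a 3'-end mRNA kit.

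Oxidative phosphorylation couples the passage of electrons along the inner mitochondrial membrane to the making of ATP. Complex II passes electrons from succinate to ubiquinone, complex III passes them on to cytochrome c, complex IV hands them to oxygen, and complex V, the ATP synthase, uses the proton gradient so formed. Complex II is built from nuclear genes alone, whereas complexes III, IV and V also contain subunits made from the mitochondrial genome. Acute myeloid leukaemia cells are known for their reliance on this pathway.

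The libraries held 8347588 to 9329917 counts. The Flt3 row had 5.44, 5.90 and 9.13 CPM in OFF, against 5.48, 5.81 and 5.71 CPM in ON, and did not differ beyond its error (log2 fold change 0.27, 95% interval -0.22 to 0.75). A 3'-end count of the mouse gene need not see the transgene, so this row does not check the labels. Values are CPM, counts relative to a library size scaled by the trimmed mean of M values and not divided by gene length, and 1 count was worth at most 0.124 CPM. The library of OFF replicate 3 stood apart from the other OFF libraries on the second principal component of all rows (-29.3, against 23.9 and 14.4 for OFF replicates 1 and 2), and 28 of the 35 genes had their highest OFF value there. Ribosomal RNA locus rows held 10.1% of the counts of OFF replicate 3, against 17.9% and 17.2% in OFF replicates 1 and 2. In ON replicates 1 to 3 they held 12.1%, 11.3% and 16.2%. The part of this difference in the results was not tested. Counts that lead the text are therefore also given without OFF replicate 3. Markers of the leukaemic myeloid cells summed to 4256 to 4493 CPM in OFF and 2525 to 2915 CPM in ON over 11 genes, most of it Elane, Prtn3 and Mpo. Of the 10 tested, 6 rose and 1 fell (Ctsg, -0.39, adjusted p = 0.016). Cd34 (0.32, adjusted p = 0.0556), Hoxa9 (0.08) and Cebpa (-0.09) did not pass, and Kit had at most 5 counts in any library. Erythroid genes, 8 of 9 with a row, summed to 578 to 934 CPM in OFF and 150 to 212 CPM in ON, nearly all from globin rows. The platelet list of 5 genes summed to 54.9 to 63.8 CPM in OFF and 32.3 to 37.0 CPM in ON, most of it Gp1bb. Its other genes, Pf4, Ppbp, Itga2b and Gp9, had at most 1.21 CPM in any library, so the sum follows Gp1bb alone. The macrophage list of 8 genes summed to 17.6 to 24.5 CPM in OFF and 40.0 to 43.2 CPM in ON, most of it Vcam1, with Cd5l at 0 throughout. C1qa, C1qb, C1qc, Cd163 and Siglec1 each had at most 0.457 CPM in any library. Of the 2 tested genes of the macrophage list Vcam1 fell and Mrc1 rose (1.52, adjusted p = 0.0163), the second at 1.32 to 1.67 CPM in OFF and 0.248 to 0.683 CPM in ON. Lymphoid markers (8 genes) summed to at most 2.75 CPM in OFF and 1.71 CPM in ON. Stromal and endothelial markers (8 genes) summed to 7.91 to 11.4 CPM in OFF and 6.82 to 10.3 CPM in ON, with Lepr and Emcn at 0 in every library. Whether these rows come from other cells, and the part of such cells in the results below, was not tested. In bulk samples fewer cells of a type and less RNA per cell cannot be told apart.

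After FLT3-ITD was switched off, 8 of the 35 genes fell and none rose at an adjusted p of 0.05. Across all rows tested, 34.8% were called, 17.5% lower and 17.3% higher in OFF. In the main fit, the 22.9% of the respiratory genes called lower was thus not far from the share of all rows called lower. A smaller share of them was called in either direction than among all rows. The genes that fell were cytochrome c (Cycs), Cyc1 and Uqcrq of complex III, Cox5a of complex IV, and Atp5a1, Atp5b, Atp5g1 and Atp5g3 of complex V. Complex II had no member among them. At an unadjusted p under 0.05 there were 12 genes, of which 1 was higher, against 44% of all rows, and the DESeq2 test also called 8 lower and none higher. The log2 fold change, OFF minus ON, had a midpoint (median) of -0.046 over the 35 genes and 0.0043 over all rows. The number that fell was 12, beside 1 that rose, when OFF replicate 3 was left out (median -0.14). It was 5 when either OFF replicate 2 or ON replicate 2 was left out. Over all rows, the number called lower was 2390 in the main fit and 2687 without OFF replicate 3. It was 1740 without OFF replicate 2 and 1678 without ON replicate 2. The likeness to the share of all rows therefore holds for the main fit alone. All OFF values lay on the same side of all ON values for 14 of the 35 genes (40%, against 48.3% of all rows), 10 of them lower and 4 higher in OFF.

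**Figure D1:**
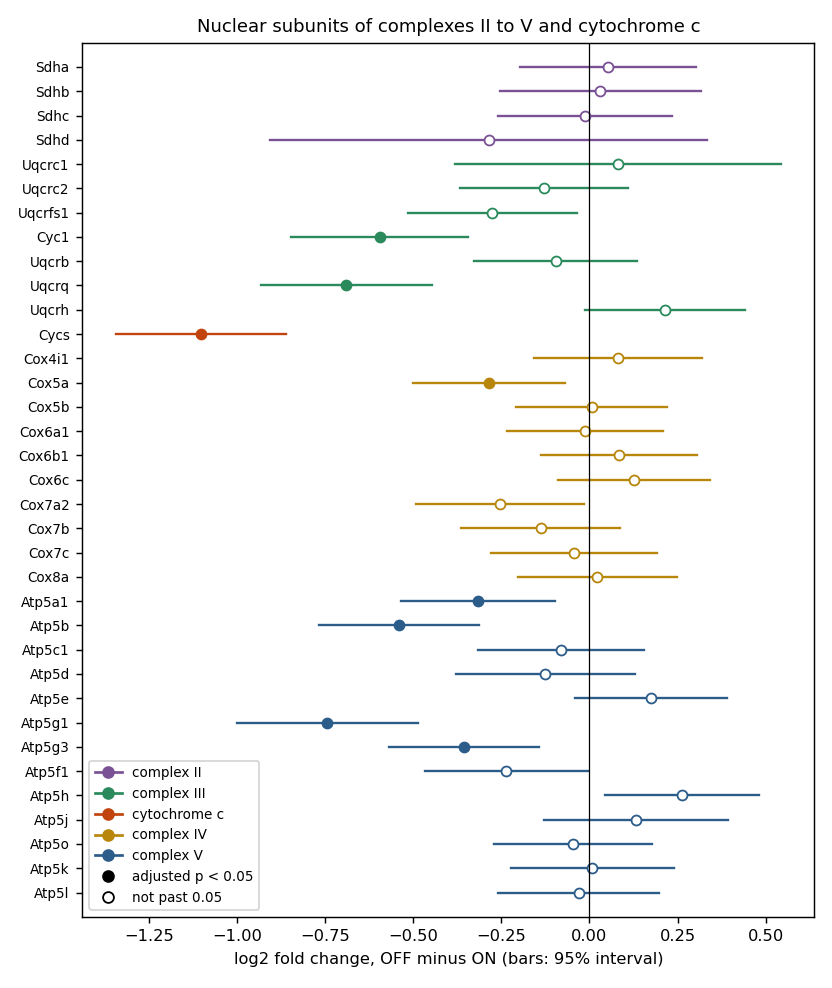
Log2 fold change (OFF minus ON, x axis) of each of the 35 genes, coloured by complex, with its 95% interval from edgeR's quasi-likelihood fit on 3 OFF and 3 ON mice. Filled points passed an adjusted p of 0.05: Cycs lies furthest to the left at -1.10, 8 filled points are all left of 0, and the complex II points are all open.

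For the 27 genes that did not pass, the main fit gave intervals for the change of each row. For 26 of them the 95% interval of the fold change lay within 1.5-fold in either direction, and the exception was Sdhd. These bounds hold for that fit alone. Without OFF replicate 3, Uqcrc1, Uqcrfs1, Cox7a2 and Atp5f1 were called lower, and Atp5h was called higher in 4 of 13 alternative settings. Some rows also cannot be told apart from those of other genes, as given below, so their intervals need not bound the gene. Standard errors over the 35 genes ran from 0.10 to 0.28 on the log2 scale, with a median of 0.11, against a median of 0.16 over all rows.

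Cytochrome c showed the largest change of the 35 genes. Cycs (GRCm38, chromosome 6, 50562563 to 50566538, minus strand) encodes the small haem protein that carries electrons from complex III to complex IV and that starts caspase activation when it leaves the mitochondrion. It stood at 112, 87.5 and 96.4 CPM in OFF replicates 1 to 3, against 219, 209 and 207 CPM in ON replicates 1 to 3. Every OFF value was far below every ON value, and the gap was wider than the spread within either group. The log2 fold change was -1.10 (SE 0.11, 95% interval -1.34 to -0.86, adjusted p = 7.27e-06), a 2.15-fold lower level in OFF. It passed in each of the 13 alternative settings, with log2 fold changes of -1.20 to -1.02. The testis form Cyct had 1 count in all 6 libraries together.

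The Cycs promoter is shown because this gene changed most and because the set of promoters holds known motifs of respiratory genes. The bases are those before the RefSeq start (GRCm38.p6, chr6:50566570-50566819, minus strand), 5′ to 3′. Capitals mark the cyclic AMP response element TGACGTCA, whose first base lies 169 bases before the start, and GCATGCGC, a core of the NRF1 motif, which begins 60 bases before it.

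Cycs: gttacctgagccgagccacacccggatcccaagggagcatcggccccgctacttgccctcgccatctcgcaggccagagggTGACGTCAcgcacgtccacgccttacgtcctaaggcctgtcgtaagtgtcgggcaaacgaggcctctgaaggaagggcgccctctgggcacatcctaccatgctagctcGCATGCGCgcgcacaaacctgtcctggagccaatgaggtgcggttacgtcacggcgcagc

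Of the 35 genes, 26 had a promoter in the RefSeq table, and the 250 bases before each start were searched on both strands. GCATGCGC was found in 5 of the 26 (19.2%; Sdhb, Atp5k, Cox6a1, Cycs and Atp5l), against 2.32% of 27025 promoters of that length. Of these 5, Cycs alone was called. CCGGAAG, an ETS-type motif that GABPA binds, was found in 7 (26.9%, against 7.05%), none of which was called lower or higher. TGACGTCA was found in Cycs and Uqcrfs1 (7.69%, against 1.62%), and CACGTG, the E-box that MYC and related factors bind, in Atp5g1, Atp5g3 and Atp5l (11.5%, against 6.05%). CCAAT, which can lie inside longer motifs, was found in 15 (57.7%, against 34.5%). These matches describe the letters in this window, and their part in the changes was not tested.

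**Figure D2:**
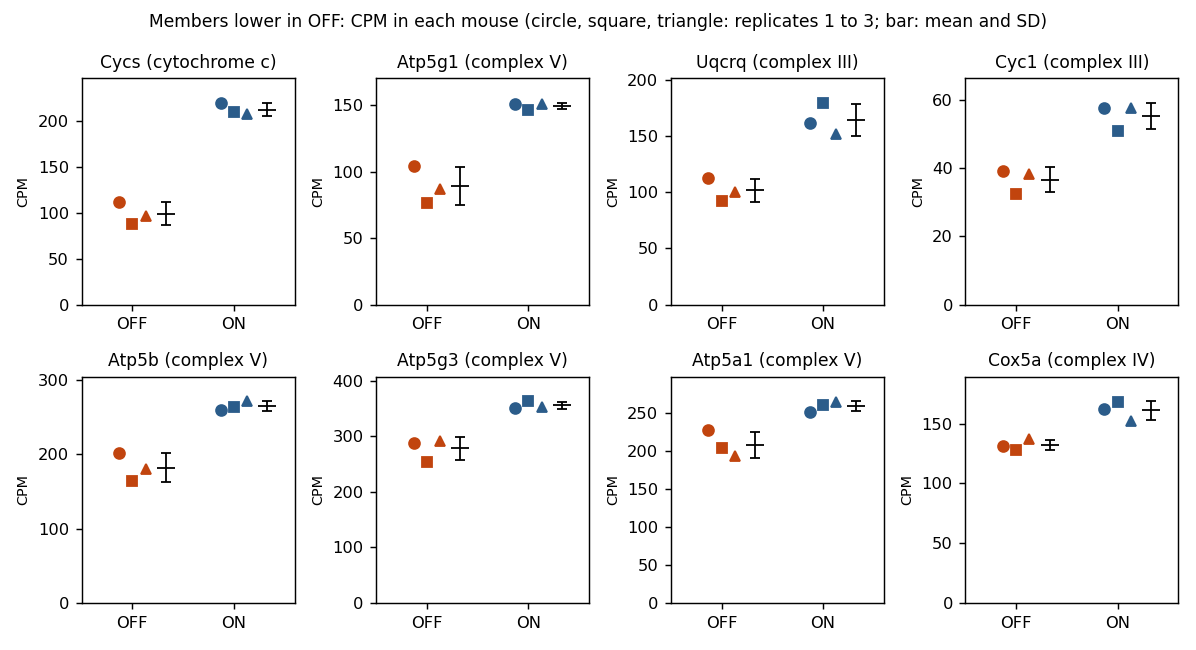
Level in CPM (y axis, from 0) of the 8 genes that fell, in each OFF and ON mouse, with the mean and SD of 3 mice beside the points. In all 8 panels the 3 OFF points lie below the 3 ON points, from Cycs (98.6 CPM in OFF and 212 CPM in ON) to Cox5a (132 and 161 CPM).

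Complex II showed no call in either direction among its 4 members, against 34.8% of all rows called. So few genes cannot be set apart from that share. Its members gave a median log2 fold change of 0.0088, or -0.12 without OFF replicate 3. Sdha, the flavoprotein that oxidises succinate, had 88.0, 78.1 and 104 CPM in OFF and 85.5, 87.5 and 86.8 CPM in ON. The OFF values lay on either side of the ON values, and the fold change was 0.05 (95% interval -0.20 to 0.30, adjusted p = 0.762). Its sign turned without OFF replicate 3, at -0.06. Sdhb, the iron-sulphur subunit, and Sdhc, a membrane anchor, gave log2 fold changes of 0.03 and -0.01. Sdhd, the other membrane anchor, had 5.66, 13.3 and 14.5 CPM in OFF and 12.2, 12.9 and 15.8 CPM in ON. OFF replicate 1 was the lowest of all 6 mice, and the other OFF values lay within the ON range. Its log2 fold change was -0.29 (95% interval -0.91 to 0.33, adjusted p = 0.468), and it was 0.03 without that library. Summed over the 4 genes, complex II held 183, 181 and 234 CPM in OFF and 198, 197 and 198 CPM in ON. The ON libraries were within about 1 CPM of each other, and OFF replicate 3 was above them while the other OFF libraries were below.

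In complex III, 2 of 7 members fell (28.6%, against 17.5% of all rows lower and 34.8% called), and the median log2 fold change was -0.13. Uqcrq (chromosome 11, 53427922 to 53430831, minus strand), a small subunit near the ubiquinone site, had 113, 92.4 and 100 CPM in OFF, against 161, 179 and 152 CPM in ON. The groups were clearly apart (log2 fold change -0.69, SE 0.11, adjusted p = 3.36e-04), a 1.61-fold lower level in OFF. Cyc1 (chromosome 15, 76343523 to 76346260, plus strand) is cytochrome c1, the haem subunit that hands electrons to cytochrome c. It had 39.1, 32.3 and 38.3 CPM in OFF, against 57.6, 50.8 and 57.4 CPM in ON. Again all OFF values were the lower ones (log2 fold change -0.60, SE 0.12, adjusted p = 0.00125), a 1.51-fold lower level. Both calls held in each of the 13 alternative settings.

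The catalytic Rieske iron-sulphur protein Uqcrfs1 had 32.99, 35.5 and 37.7 CPM in OFF, against 41.1, 42.5 and 45.0 CPM in ON. These values did not overlap, but the fold change of -0.28 did not pass (adjusted p = 0.0698), or passed at 0.0231 without OFF replicate 3. The core proteins Uqcrc1 and Uqcrc2, which form the matrix side of the complex, gave 0.08 and -0.13. Uqcrc1 stood at 55.0, 51.2 and 96.3 CPM in OFF, against 65.8, 64.5 and 61.2 CPM in ON. The high value was OFF replicate 3, and without it Uqcrc1 was called lower (-0.26, adjusted p = 0.0387). The row of Uqcrc2 shares 504 exonic bases at its 3' end with Pdzd9 on the opposite strand, whose row held 96.4% to 99.2% as many counts in every library, so these rows cannot be told apart. Uqcrb, a small subunit, gave -0.10. The hinge protein Uqcrh, which helps cytochrome c1 to meet cytochrome c, had 163, 158 and 186 CPM in OFF, against 152, 141 and 144 CPM in ON. It was higher in all 3 OFF mice without passing (0.21, adjusted p = 0.134). Complex III as a sum held 571, 538 and 658 CPM in OFF and 679, 664 and 651 CPM in ON, and OFF replicate 3 reached into the ON range.

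Complex IV had 1 of 10 members lower (against 17.5% of all rows lower), and its median log2 fold change was -0.0025, or -0.060 without OFF replicate 3. Cox5a (chromosome 9, 57521274 to 57532426, plus strand), a matrix-facing subunit, had 132, 128 and 137 CPM in OFF, against 163, 168 and 153 CPM in ON. The groups did not overlap, and the fold change was small (-0.29, SE 0.10, adjusted p = 0.0393). The call was lost in 8 of the 13 alternative settings, at adjusted p from 0.0508 to 0.165, among them those without OFF replicate 2, without any 1 ON library and with a replicate block (0.0894). Its 3' end also shares 269 exonic bases with the antisense row Gm26631, which held 98.4% to 99.7% as many counts in every library. The count of Cox5a cannot be told apart from that row.

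Cox6c, which had the highest mean CPM of the complex IV rows over the 6 libraries, had 307, 304 and 352 CPM in OFF, against 301, 284 and 298 CPM in ON. All 3 OFF values were the higher ones, by a small margin that did not pass (0.13, adjusted p = 0.359). Cox7a2, of which another isoform is described further on, had 217, 200 and 245 CPM in OFF, against 272, 281 and 236 CPM in ON. The groups overlapped through OFF replicate 3, and the fold change was -0.25 (adjusted p = 0.0929, or -0.33 at 0.00708 without that library). The other members, Cox4i1, Cox5b, Cox6a1, Cox6b1, Cox7b, Cox7c and Cox8a, gave log2 fold changes between -0.14 and 0.08. All 7 of these overlapped between the groups. Cox4i1, which joins the complex early in assembly, and Cox5b, a zinc-binding subunit, gave 0.08 and 0.01. Summed, complex IV held 1760, 1760 and 1979 CPM in OFF and 1914, 1892 and 1833 CPM in ON.

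Complex V had 4 of 13 members lower (30.8%, against 17.5% of all rows lower and 34.8% called in either direction). In the main fit all 4 belonged to the catalytic head or the c ring (none of the 9 others was called). Atp5b (chromosome 10, 128083273 to 128090391, plus strand), the beta subunit that carries the catalytic sites, had 202, 164 and 181 CPM in OFF, against 260, 264 and 272 CPM in ON. The OFF values were all lower (log2 fold change -0.54, SE 0.11, adjusted p = 0.00123), and the call held in each of the 13 alternative settings. Its partner in the head, the alpha subunit Atp5a1 (chromosome 18, 77773729 to 77782869, plus strand), had 227, 203 and 193 CPM in OFF, against 251, 261 and 264 CPM in ON. The groups were apart, but by less than for Atp5b (-0.32, SE 0.10, adjusted p = 0.0266). The call on Atp5a1 was lost in 6 of the 13 settings, at adjusted p from 0.0568 to 0.161, among them those without OFF replicate 2, without any 1 ON library and with a replicate block (0.0568).

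The central stalk, which turns inside the head, gave no call among 3 members (against 34.8% of all rows called). Its gamma and delta subunits Atp5c1 and Atp5d had log2 fold changes of -0.08 and -0.12. The epsilon subunit Atp5e had 127, 137 and 139 CPM in OFF, against 122, 117 and 117 CPM in ON, higher in all 3 OFF mice without passing (0.18, adjusted p = 0.196). In the peripheral stalk, which holds the head still, none of 4 members passed (against 34.8% of all rows called). Atp5h, its d subunit, had 192, 189 and 208 CPM in OFF, against 174, 157 and 159 CPM in ON. It had the largest positive fold change of the 35 genes and did not overlap between groups (0.26, 95% interval 0.04 to 0.48, adjusted p = 0.0592). It was called higher in 4 of the 13 settings, those without OFF replicate 1 or 3, without the ribosomal RNA rows and with at least 10 CPM in 3 libraries. Atp5f1, the b subunit, had 114, 109 and 130 CPM in OFF, against 130, 143 and 143 CPM in ON. Its OFF values were the lower ones (-0.24, adjusted p = 0.106), and it was called without OFF replicate 3 (0.0104). Atp5j and Atp5o, the F6 and OSCP subunits, gave 0.13 and -0.05, and the membrane subunits Atp5k and Atp5l, which help the enzyme to pair up, gave 0.01 and -0.03. Summed, complex V held 2088, 1922 and 2189 CPM in OFF and 2346, 2324 and 2306 CPM in ON. Here all OFF libraries, OFF replicate 3 included, lay below the ON libraries. The mean sum was 2066 CPM in OFF and 2325 CPM in ON. It holds the called genes, with means in OFF and ON of 182 and 265 CPM (Atp5b), 278 and 356 CPM (Atp5g3), 89.3 and 149 CPM (Atp5g1) and 208 and 258 CPM (Atp5a1). The median log2 fold change of the 13 members was -0.081, and 4 of them were positive, so the lower sum was not shared by all members.

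**Figure D3:**
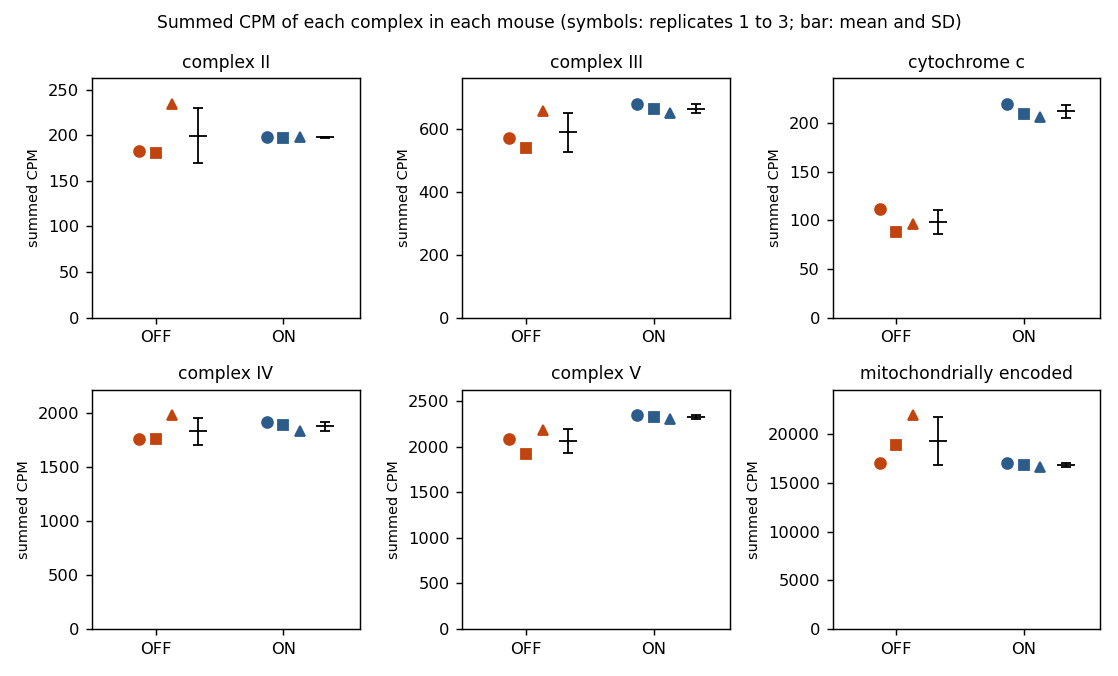
Summed CPM (y axis, from 0) over the measured genes of each complex, in each OFF and ON mouse, with the mean and SD of 3 mice. Cytochrome c and the complex V sum, which holds 4 called genes, were lower in every OFF mouse. In complexes II, III and IV OFF replicate 3 (triangle) lay above the other OFF mice and within or above the ON mice.

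The c ring of complex V, the rotor through which protons pass, was the place where genes for the same protein differed. Atp5g1, Atp5g2 and Atp5g3 encode the same mature c subunit with different import sequences. Atp5g1 and Atp5g3 are among the 35 genes, and Atp5g2 was added to the comparison after its values were seen. Atp5g1 (chromosome 11, 96068852 to 96075670, minus strand) had 105, 76.2 and 87.1 CPM in OFF, against 151, 147 and 151 CPM in ON. The ON values were close together and all OFF values lay well below them (log2 fold change -0.74, SE 0.12, adjusted p = 2.90e-04), a 1.67-fold lower level that held in each of the 13 settings. Atp5g3 (chromosome 2, 73908447 to 73911326, minus strand) had 288, 254 and 292 CPM in OFF, against 351, 364 and 353 CPM in ON. It too was lower in all OFF mice (-0.36, SE 0.10, adjusted p = 0.0122), and the call was lost in 3 settings (without OFF replicate 2, without ON replicate 2 and on the authors' normalised values, at adjusted p from 0.0564 to 0.0669). Atp5g2 had 178, 183 and 208 CPM in OFF, against 158, 164 and 167 CPM in ON. It was higher in all 3 OFF mice and did not pass (0.22, 95% interval -0.0044 to 0.44, adjusted p = 0.12).

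The makeup of the c ring transcripts is given as a description. Of the summed CPM of the c ring genes, Atp5g2 made up 31.1%, 35.7% and 35.4% in OFF, against 23.9%, 24.3% and 24.9% in ON. Atp5g1 made up 18.3%, 14.8% and 14.8% in OFF, against 22.9%, 21.7% and 22.5% in ON. Atp5g3 made up 49.9% ± 0.562 in OFF and 53.2% ± 0.649 in ON (SD, n = 3 each). The groups did not overlap in any of these shares, which do not depend on the scaling of the libraries, and no test was made of them. The summed level was 571, 513 and 588 CPM in OFF, against 661, 674 and 671 CPM in ON, so the total was lower in every OFF mouse.

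**Figure D4:**
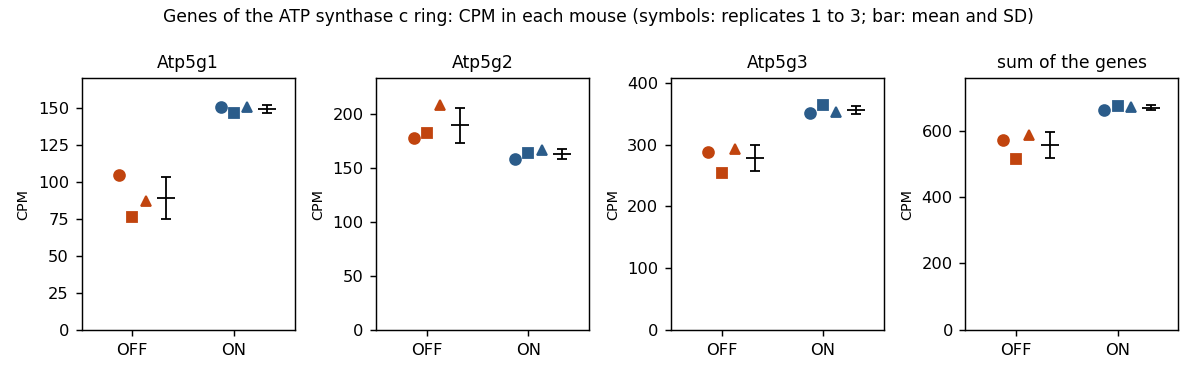
CPM (y axis, from 0) of the genes of the ATP synthase c subunit and of their sum, in each OFF and ON mouse, with the mean and SD of 3 mice. Atp5g1 and Atp5g3 lie lower in OFF than in ON, Atp5g2 lies higher in OFF without passing the test (adjusted p = 0.12), and the sum lies lower.

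The promoters of the c ring genes are shown as a description of their letters, with Atp5g2 added after its values were seen. The bases are the 250 before the RefSeq start in GRCm38.p6, 5′ to 3′ on the gene's strand, at chr11:96075632-96075881 (minus) for Atp5g1, chr2:73911327-73911576 (minus) for Atp5g3 and chr15:102671048-102671297 (minus) for Atp5g2. Capitals mark CACGTG in the first pair and GCATGCGC, present on both strands and overlapping itself, in Atp5g2.

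Atp5g1: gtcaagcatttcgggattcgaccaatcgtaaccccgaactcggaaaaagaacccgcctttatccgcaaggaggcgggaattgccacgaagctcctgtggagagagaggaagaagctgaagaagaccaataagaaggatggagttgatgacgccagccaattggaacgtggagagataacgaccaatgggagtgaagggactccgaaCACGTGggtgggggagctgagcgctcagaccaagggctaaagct

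Atp5g3: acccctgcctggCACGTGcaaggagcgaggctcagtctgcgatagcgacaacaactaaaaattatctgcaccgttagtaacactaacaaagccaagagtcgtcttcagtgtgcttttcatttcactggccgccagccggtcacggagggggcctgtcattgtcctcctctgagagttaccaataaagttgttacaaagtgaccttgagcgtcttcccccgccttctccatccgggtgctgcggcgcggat

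Atp5g2: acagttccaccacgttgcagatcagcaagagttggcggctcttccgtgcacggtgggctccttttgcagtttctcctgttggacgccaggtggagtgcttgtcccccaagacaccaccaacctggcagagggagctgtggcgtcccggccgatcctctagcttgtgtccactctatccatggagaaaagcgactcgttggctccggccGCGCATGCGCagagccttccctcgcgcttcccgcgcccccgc

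CACGTG began 44 bases before the start in Atp5g1 and 238 bases before it in Atp5g3, and it was not found in the Atp5g2 window. GCATGCGC began 40 bases before the Atp5g2 start on the strand of the gene and was not found in the windows of Atp5g1 and Atp5g3. A single RefSeq start was used for each gene. The Atp5g2 window lies inside the GENCODE gene (102662864 to 102672352, minus strand), so the bases before the GENCODE 5' end were not searched. The windows are thus not a like comparison, and the part of any motif in the changes was not tested.

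Several of these genes have near-identical copies, and whether reads were assigned to more than 1 row was not tested. The last 300 bases of the transcripts of 14 of the 35 genes matched transcripts of other genes at 95% identity or more over at least 100 bases, and in 8 cases the matching rows held more than 5% as many counts as the gene itself. The Cox7c pseudogene row Gm10012 held 80.3% to 85.6% as many counts as Cox7c in every library, and Atp5h, Atp5l, Cox5b and Uqcrb each had a copy with 20.5% to 70.1% as many counts over all libraries. Summed over all matching rows, the copies held 189% as many counts as Atp5l, 108% as many as Cox7c, 60.2% as many as Atp5h, 54.9% as many as Cox5b and 31.1% as many as Uqcrb. The values of these 5 genes, none of them called in the main comparison, are uncertain. So is that of the called gene Atp5g1, whose matching rows held 184% as many counts, most of them from Bclaf1. Among the 8 called genes, Atp5g1 matched the pseudogene row Gm10039, which held 5.93% to 9.503% as many counts, and a stretch of Bclaf1, a gene with 174% as many counts, and Cox5a matched a row with 3 counts. The rows of Gm10039 (-0.53) and Bclaf1 (-0.46) were also lower in OFF (adjusted p = 0.0406 and 0.0254), and the part of their reads in the change of Atp5g1 was not tested. The other 6 called genes had no such copy, and the pseudogene row Cycs-ps2 held 2 to 5 counts in each library.

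Other nuclear subunits and isoforms were read beside the same background. Of 19 further subunits and isoforms of complexes III to V, 12 had enough counts to be tested, and 1 fell and 2 rose (25.0% called, against 34.8% of all rows). Cox7a2l, a relative of Cox7a2 that joins complexes III and IV into supercomplexes, had 137, 156 and 170 CPM in OFF, against 113, 108 and 94.6 CPM in ON. It was higher in every OFF mouse (log2 fold change 0.56, SE 0.12, adjusted p = 0.00181), a call that held in each of the 13 settings. Cox7a1, the isoform of heart and skeletal muscle, was also higher at a very low level, with 1.89, 1.67 and 2.86 CPM in OFF, against 0.685, 0.797 and 1.36 CPM in ON (1.18, adjusted p = 0.0313, called in 7 of 11 settings). Usmg5, a small ATP synthase subunit, fell by 0.30 on the log2 scale (adjusted p = 0.0442, called in 3 of 13 settings). The number higher was 4 without OFF replicate 1 and 1 without OFF replicate 3 or without ON replicate 1, and none was lower without OFF replicate 2 or without any 1 ON library.

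Of the 6 subunits of complexes III to V made from the mitochondrial genome, 1 rose and none fell (16.7% called, against 34.8% of all rows). The catalytic subunit mt-Co1 of complex IV had 3475, 3572 and 4415 CPM in OFF, against 2747, 2496 and 3208 CPM in ON. It was higher in every OFF mouse (0.44, SE 0.12, adjusted p = 0.00992), a call that held in 10 of 13 settings. The call was lost without ON replicate 1, without ON replicate 2 and on the authors' normalised values. The 3' end of mt-Co1 shares 3 exonic bases with mt-Ts1 on the opposite strand. The mt-Ts1 row held 125082 counts, against 175331 for mt-Co1, and was also higher (0.65, adjusted p = 0.0434). Whether the same reads were assigned to both rows was not tested. Without OFF replicate 1, 2 of the 6 were higher. mt-Co3 and mt-Atp6 gave 0.26 and 0.17 (adjusted p = 0.105 and 0.217). Their OFF values were highest in OFF replicate 3, and the sum over the 6 genes was 17023, 18841 and 21925 CPM in OFF, against 17035, 16834 and 16633 CPM in ON.

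Assembly factors of complexes II to V had 11 of 37 members lower and 1 higher, with a median log2 fold change of -0.19. This was 32.4% called, against 34.8% of all rows, and 29.7% lower, against 17.5% of all rows. The lower count was 7 without ON replicate 1 or ON replicate 3, and 8 to 11 without any other library; none was higher without OFF replicate 2, ON replicate 2 or ON replicate 3, and 2 were without OFF replicate 1. Lrpprc, which stabilises mitochondrial mRNAs, had 37.0, 34.4 and 34.3 CPM in OFF, against 57.1, 56.0 and 54.2 CPM in ON. The values within each group were close together and far apart between them (-0.66, SE 0.11, adjusted p = 2.79e-04). Hccs, the lyase that attaches haem to cytochrome c and cytochrome c1, had 11.1, 10.4 and 11.0 CPM in OFF, against 18.0, 19.7 and 15.6 CPM in ON (-0.72, SE 0.15, adjusted p = 0.00159). Hccs thus fell together with Cycs and Cyc1, the genes of its protein substrates. Sco2, which with Sco1 delivers copper to complex IV, had 4.78, 2.78 and 4.40 CPM in OFF, against 8.34, 8.66 and 8.93 CPM in ON (-1.11, SE 0.22, adjusted p = 0.00137). Its exons overlap those of Ncaph2, on the opposite strand and with more counts (log2 fold change 0.01, adjusted p = 0.94), so counts of Sco2 and of that gene cannot be fully told apart. The calls on Lrpprc and Hccs held in each of 13 settings, and that on Sco2 in each of the 12 that gave it a value.

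**Figure D5:**
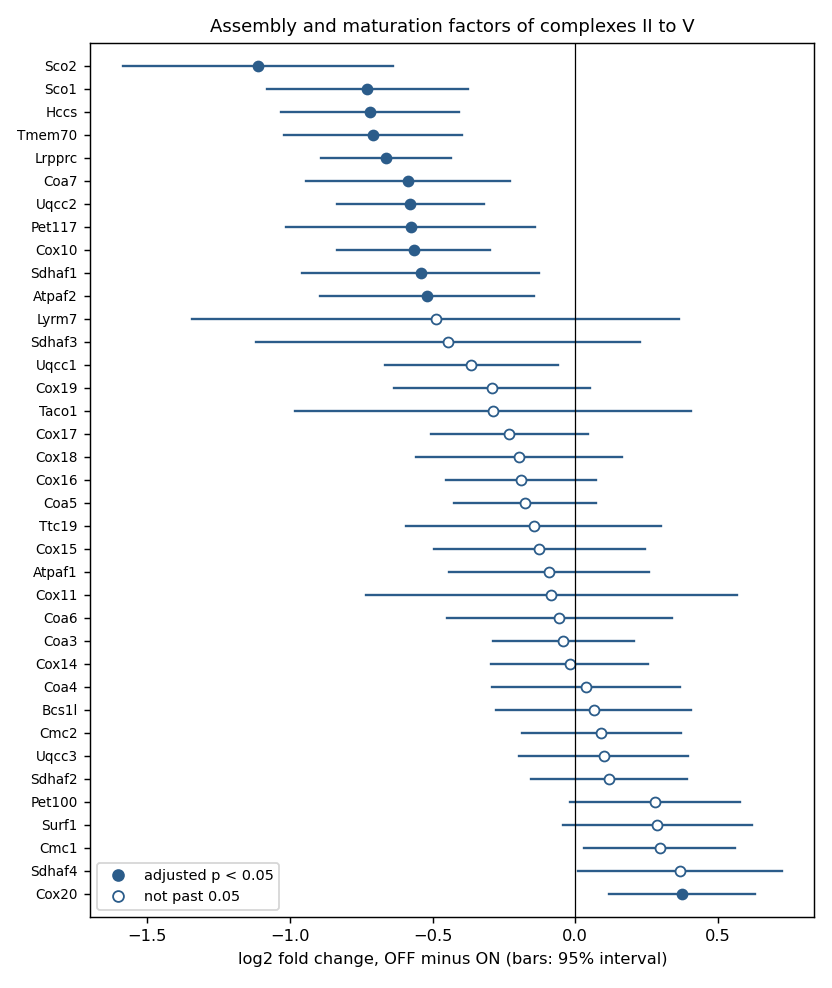
Log2 fold change (OFF minus ON, x axis) of 37 assembly and maturation factors of complexes II to V, with 95% intervals from edgeR's quasi-likelihood fit on 3 OFF and 3 ON mice. Filled points passed an adjusted p of 0.05: 11 lie left of 0, from Sco2 (-1.11) to Atpaf2 (-0.52), and Cox20 (0.37) lies right of it.

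Complex I, which feeds electrons into the chain from NADH, gave 4 of 36 nuclear subunits lower and 4 higher (22.2% called, against 34.8% of all rows). Its median of -0.047 was close to the median of the 35 genes. Ndufa12 (-0.52), Ndufc2 (-0.45) and Ndufab1 (-0.46) had the smallest p and fell in each of 13 settings, while the number called higher was 6 without OFF replicate 1, 2 without OFF replicate 3 or ON replicate 1, 1 without OFF replicate 2 or ON replicate 2, and 0 without ON replicate 3. Genes of coenzyme Q synthesis gave 3 of 13 lower and 1 higher (30.8% called, against 34.8% of all rows), or 5 lower without OFF replicate 1. The 3 with the smallest p were the kinase-like Coq8a, which averaged 3.80 ± 0.610 CPM in OFF and 1.72 ± 0.207 CPM in ON (SD, n = 3 each; adjusted p = 0.00726), Coq5 (-0.53) and Coq4 (-0.95).

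Among 14 transcription regulators of respiratory genes, 12 were tested, 2 fell and none rose (16.7% called, against 34.8% of all rows). None rose at an unadjusted p under 0.05 either, and 4 fell without OFF replicate 1. Myc, which drives many growth genes, had 7.11, 7.02 and 8.25 CPM in OFF, against 20.7, 20.2 and 26.0 CPM in ON (-1.58, adjusted p = 6.05e-06). Pprc1, a coactivator of the PGC-1 family that responds to growth signals, had 5.55, 3.12 and 3.30 CPM in OFF, against 10.4, 11.3 and 9.30 CPM in ON (-1.37, adjusted p = 3.58e-04). In both genes each OFF value was less than each ON value. Gabpa, which binds ETS-type motifs in respiratory promoters, gave -0.29 and did not pass (adjusted p = 0.0977). Ppargc1a and Ppargc1b, the other members of that coactivator family, had at most 7 counts in any library and were not tested.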

How the data were processed

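The 35 members, the gene lists and the settings were chosen with earlier results of these data known. Per the labels' protocols, RNA was column-purified with DNase treatment and libraries were made with Lexogen QuantSeq 3' chemistry, so a count reflects the 3' end of a transcript and CPM values were not divided by length. Per the submitters' processing notes, the tools include cutadapt 1.9.1, HISAT2 2.0.4, featureCounts from Subread 1.6.3, and limma 3.42.2, and the build is mm10. Which annotation, strand setting and handling of reads with several positions they used is not given in the sources used here. Antisense rows with nearly equal counts cannot be told apart from their partners.

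The raw count table that the authors deposited has 54838 rows, of which 1105 without a name (0.145% to 0.172% of counts) were left out. The authors' second deposited table holds normalised log2 values for 12287 genes and served only as an alternative. With edgeR 4.0.16 (R 4.3.3), filterByExpr kept rows (minimum count 10, minimum total 15) and libraries were scaled by TMM. The test of OFF over ON used glmQLFit and glmQLFTest (robust, no covariate), with Benjamini-Hochberg adjustment over 13652 rows at 0.05. The fit was checked on simulated counts. The SE is the absolute log2 fold change divided by the square root of F. Libraries of the same group were further apart than counting noise (chi-square per degree of freedom 2.98 to 39.5), so each library was 1 replicate. Nothing in the labels says whether the injected cells came from separate cultures. A count of 0 allows up to 3 counts, at most 0.372 CPM, and covers counting error only. An exact permutation of 3 against 3 mice cannot go below p = 0.1, so the model's adjusted p was used.

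Values per mouse were given for every called gene and, in each complex, for the highest CPM and the largest fold change in each direction. From each other list, up to 3 genes with the smallest p were named. Uqcrc1, Uqcrfs1, Cox7a2, Atp5e, Atp5f1 and Atp5g2 were described in more detail after their values were seen. For the marker Itgam the row with the most counts was used. Alternatives were DESeq2 1.42.0 and its size factors, no ribosomal RNA locus rows, other filters, each library left out, a replicate block, and limma 3.58.1 on the authors' log2 values. Gene positions are from GENCODE M21 (GRCm38), copies were searched with blastn 2.17.0, and promoters are from RefSeq.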

Additional observations from a re-analysis of the deposited data

How the results depend on the processing

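Cycs, Cyc1, Uqcrq, Atp5b and Atp5g1 were called lower in all 13 alternative settings, and the calls on Cox5a, Atp5a1 and Atp5g3 were not. Leaving out each library in turn gave 5 to 12 of the 35 genes lower and 0 to 1 higher, with medians of -0.14 to -0.0055. Over all rows these fits called 1678 to 2740 lower. By complex these fits gave none in complex II (median -0.12 to 0.067), 2 to 4 lower in complex III (median -0.26 to -0.068), 0 to 2 in complex IV (median -0.060 to 0.037), and 2 to 5 lower and 0 to 1 higher in complex V. The authors' normalised values gave 5 lower in all, 2 of them in complex V. Complex IV had 0 lower on those values, without the ribosomal RNA locus rows, without a low-count filter and with a replicate block. With no ribosomal RNA locus rows, or with at least 10 CPM in 3 libraries, 1 gene was higher (Atp5h, complex V). Over the fits that leave out a library, Sdha ranged from -0.057 (without OFF replicate 3) to 0.146 and Sdhd from -0.52 to 0.031 (without OFF replicate 1). The cause of these changes was not tested. Same-numbered OFF and ON libraries did not deviate together (correlations of 0.035, -0.076 and -0.050). This gives no sign that the numbers pair them, but it cannot exclude a shared handling. With a replicate block, 6 genes were lower and none higher, and 4403 rows were called in all. In the main fit 4746 rows were called, and 3293 to 5444 with 1 library left out. With 3 mice in each group precision was limited, and the parts of depth and of spread between mice were not measured for the 35 genes.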
